A study of Mus musculus with 6 samples.

Results

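The 10 genes described here encode ligands, receptors and inhibitors of transforming growth factor beta (TGF-beta) and activin signalling. They are Tgfb1, Tgfb2, Tgfb3, Tgfbr1, Tgfbr2, Tgfbr3, Inhba, Fst, Smad6 and Smad7. They were chosen by symbol from the 24015 symbols of the deposited count table. All 10 were present, and all 10 were among the 13284 genes that passed the filter on low counts.

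TGF-beta ligands are secreted as latent complexes and, once released, bind the type II receptor TGFBR2, which activates the type I receptor TGFBR1. The co-receptor TGFBR3, also called betaglycan, presents the ligands to TGFBR2. Activin A, a dimer of the INHBA chain, uses its own receptors but the same receptor-regulated Smad proteins, and follistatin, the product of Fst, binds and neutralises it. Smad6 and Smad7 are inhibitory Smads, induced by the signals that they dampen. In fibroblasts TGF-beta is known for driving the contractile, matrix-producing myofibroblast state.

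Poly(A) RNA was sequenced from cultures of primary cancer-associated fibroblasts (CAFs), which are tumour stroma cells, grown from NeuT mammary tumours of BalbC mice. The NeuT transgene is an activated form of the rat Her2 receptor that gives rise to carcinomas in the mammary gland. Cells received nanoparticles with anti-Stat3 siRNA (3 samples) or with control siRNA (3 samples), in each case at 1 ug/mL for 72 hours, to find genes that depend on the transcription factor STAT3. The promoter of the transgene, the age of the mice and the number of mice or cultures behind the samples are not given in the sources used here, and the p-values cover only the spread among these 6 samples, which may be technical.

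Total counts were 12998168 to 16043022 in the anti-Stat3 samples and 14676958 to 18683852 in the control samples, and the 10 genes had between 191 and 9285 counts each per sample. Stat3 itself had 34.7, 81.9 and 78.9 CPM in anti-Stat3 samples 1 to 3, against 220, 359 and 405 CPM in control samples 1 to 3. CPM are counts divided by the library total after TMM scaling. An anti-Stat3 and a control sample with the same number in their titles deviated alike from the means of their groups and are called a pair. Of the 12 fibroblast markers all were tested, and their summed level was 38142, 61009 and 75403 CPM in anti-Stat3 samples 1 to 3, against 33619, 88037 and 102980 CPM in control samples 1 to 3. Markers of other cell types followed the pairs. The 13 macrophage markers summed to 41.2, 1581 and 2627 CPM in the anti-Stat3 samples, against 46.2, 1679 and 2278 CPM in the control samples. The 12 epithelial or tumour cell markers summed to between 84.0 and 505 CPM in the anti-Stat3 samples, against 81.7 to 511 CPM in the control samples, and were highest in pair 2. The 5 pericyte markers summed to 165, 68.8 and 48.2 CPM in the anti-Stat3 samples, against 134, 44.8 and 30.9 CPM in the controls. Most of these sums was Mcam, an adhesion molecule, and Cspg4, while Rgs5, Kcnj8 and Abcc9 had at most 2.57 CPM and no common direction. Of the 3 tested, Mcam alone passed in DESeq2 when pairs were blocked, where 0.873% of all genes tested rose. It rose by 0.60 ± 0.17 (SE, log2, adjusted p = 0.026). Endothelial markers summed to at most 39.0 CPM and lymphocyte markers to at most 0.564 CPM in any sample, with Cd3d and Cd3g at 0 in all 6 samples. In such bulk samples, fewer cells of a type and less RNA per cell cannot be told apart.

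No member passed a test of anti-Stat3 against control siRNA over all 6 samples. The quasi-likelihood test of edgeR, with the group alone and adjusted by Benjamini-Hochberg over all genes tested at a threshold of 0.05, called 0 of the 10 genes, and 0% of all genes tested. In that test 0 members had an unadjusted p under 0.05, against 1.77% of all genes tested. With the pair as a block, edgeR called 0 members (0.0602% of all genes), DESeq2 0 (1.66%) and limma-voom 0 (0.0602%), and DESeq2 with the group alone also called 0 (0.128%). At an unadjusted p under 0.05 these fits held 2, 1, 2 and 1 members, where 10.8%, 8.05%, 11.2% and 2.22% of all genes had such a p. The 2 members in the blocked edgeR test were Tgfbr3 and Smad7. In each of the 10 genes the values of the anti-Stat3 and control samples overlapped, while they did not overlap in 4.67% of all genes tested. The median log2 change over the 10 genes was -0.04 in edgeR with the group alone, beside a median of -0.0028 over all genes tested.

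**Figure D1:**
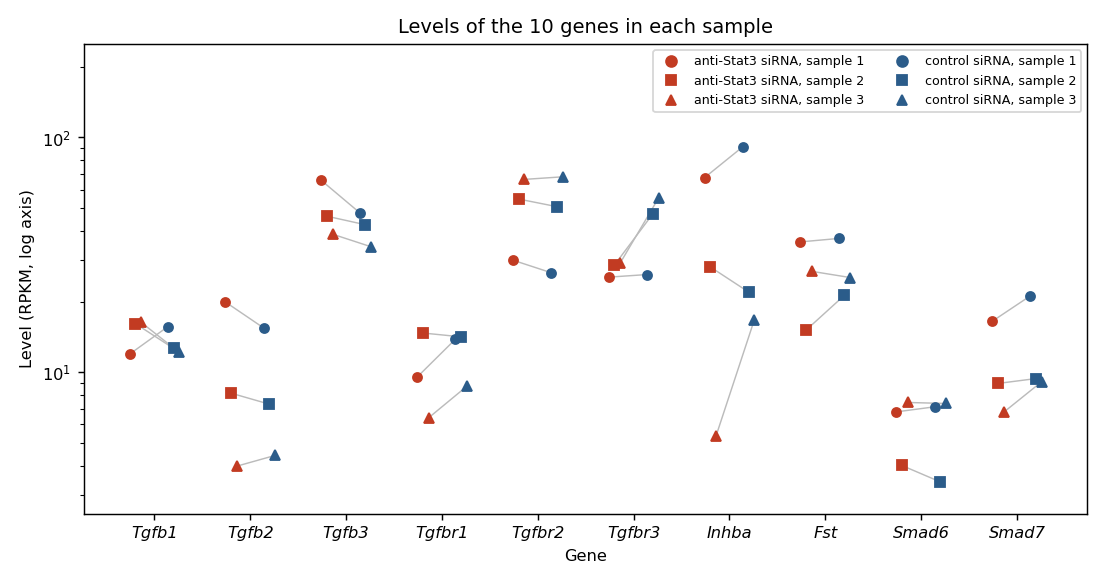
Levels of the 10 genes in RPKM (log axis), with anti-Stat3 samples in red left of control samples in blue and a grey line joining the 2 samples of a pair. Tgfbr2 or Inhba was the highest of the 10 in every sample, Inhba spanned from 5.35 to 91.3 RPKM, and the groups overlapped in each gene.

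Levels differed between the pairs for most of the 10 genes. An F test of the pair terms in the blocked edgeR fit, chosen after the data were seen, passed for 8 of the 10, all but Tgfb1 (adjusted p = 0.980) and Tgfbr3 (adjusted p = 0.0995). It passed for 41.5% of all genes tested. The direction of the change was the same in all 3 pairs for 3 members, with Tgfb3 higher and Tgfbr3 and Smad7 lower, where 33.7% of all genes tested moved the same way in all pairs.

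Among the TGF-beta ligands, Tgfb3 was the most abundant per length in each sample. RPKM, the CPM per kilobase of exon, is used wherever genes are compared. Tgfb3 made up 67.3%, 65.5% and 65.6% of the summed RPKM of the 3 ligands in anti-Stat3 samples 1 to 3, against 60.6%, 68.0% and 67.4% in control samples 1 to 3. Its share thus varied little between samples, whereas that of Tgfb2 depended on the pair. Tgfb2 made up 20.4%, 11.6% and 6.75% in anti-Stat3 samples 1 to 3, against 19.6%, 11.7% and 8.72% in control samples 1 to 3. The share of Tgfb1 varied too, at 12.2%, 22.9% and 27.7% in anti-Stat3 samples 1 to 3. In control samples 1 to 3 it was 19.8%, 20.2% and 23.9%. The summed level of the 3 ligands was 97.6, 70.5 and 59.1 RPKM in anti-Stat3 samples 1 to 3, against 79.0, 62.5 and 50.8 RPKM in control samples 1 to 3, and so was higher with anti-Stat3 siRNA within each pair. This sum was given no test.

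Tgfb3 itself had 222, 156 and 131 CPM in anti-Stat3 samples 1 to 3, against 162, 144 and 116 CPM in control samples 1 to 3. Each anti-Stat3 sample exceeded the control sample of its pair, but the lowest anti-Stat3 sample lay below the highest controls. The log2 change was 0.25 ± 0.12 (SE) in blocked edgeR, with a 95% interval of -0.02 to 0.52 (adjusted p = 0.492).

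Tgfb1, the ligand found in most tissues, had 60.2, 81.4 and 82.4 CPM in anti-Stat3 samples 1 to 3, against 78.9, 63.8 and 61.3 CPM in control samples 1 to 3. It was lower with anti-Stat3 siRNA in pair 1 and higher in pairs 2 and 3, with log2 changes of -0.39, 0.35 and 0.43. Its level varied least of the 10 genes over the 6 samples, with an SD of 0.22 on the log2 scale. The 95% interval of its change in blocked edgeR ran from -0.26 to 0.53 (adjusted p = 0.818).

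Tgfb2, the ligand that depends most on TGFBR3 for binding, had 115, 47.2 and 23.1 CPM in anti-Stat3 samples 1 to 3, against 89.5, 42.4 and 25.7 CPM in control samples 1 to 3. Both samples of pair 1 were above all others, and both of pair 3 were lowest. The pair term gave an F of 88.7 (adjusted p = 2.8e-04), the largest of the 10 genes, while the log2 change was 0.13 ± 0.13 (SE, blocked edgeR, adjusted p = 0.749).

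Among the receptors, Tgfbr3 had the largest change. Its level was 166, 187 and 191 CPM in anti-Stat3 samples 1 to 3, against 171, 309 and 361 CPM in control samples 1 to 3. The 3 anti-Stat3 samples were close to each other and to control sample 1, and control samples 2 and 3 stood above. The pair changes were -0.04, -0.72 and -0.92 on the log2 scale, so that in pairs 2 and 3 the ratios to control were 0.606 and 0.529, and in pair 1 0.975. Over all 6 samples the log2 change was -0.63 ± 0.29 (SE) in edgeR with the group alone (adjusted p = 1.00) and -0.56 ± 0.18 with the pair as a block (95% interval -0.98 to -0.14, adjusted p = 0.291). In blocked DESeq2 the adjusted p was 0.121. A mean pair change as low as that of Tgfbr3 or lower was seen in 3.52% of all genes tested.

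Without pair 1, Tgfbr3 fell by 0.82 ± 0.16 (SE) on the log2 scale in blocked edgeR (adjusted p = 0.0064) and by 0.82 ± 0.19 in blocked DESeq2 (adjusted p = 9.0e-04). Those fits, on 2 samples per group, called 5.2% and 3.19% of all genes tested. Without pair 2 or pair 3 it did not pass in either fit (adjusted p from 0.615 to 1.00). The blocked edgeR fit called 0.0225% of all genes without pair 2 and 0% without pair 3, and blocked DESeq2 called 0.105% and 0.147%. The change in pair 1 was set against that in pairs 2 and 3 with a further term in the blocked edgeR fit, which was added after the values were seen and leaves 1 residual degree of freedom among the samples. The difference for Tgfbr3 was 0.78 ± 0.29 (SE, log2, 95% interval 0.21 to 1.36) and did not pass (adjusted p = 0.254), and this term passed for 0 members and for 1.94% of all genes tested. At an unadjusted p under 0.05 it held 2 members, Tgfb1 and Tgfbr3, where 6.82% of all genes had such a p. The ratio of Stat3 to control was 0.158 in pair 1, 0.228 in pair 2 and 0.195 in pair 3, and any part of it in these differences was not tested. Some fibroblast markers were lower in pairs 2 and 3, as was Tgfbr3. Of the 12 markers, 6 were lower with anti-Stat3 siRNA in both pair 2 and pair 3 (Col1a1, Col1a2, Col3a1, Fn1, Pdgfra and Dcn), 2 were higher in both (Vim and S100a4), and 9 were higher in pair 1. The collagens and the fibronectin gene Fn1 made up 87.2% to 92.5% of the summed level in the anti-Stat3 samples and 86.0% to 94.0% in the control samples. The median over the 12 markers was 729, 931 and 994 CPM in anti-Stat3 samples 1 to 3, against 692, 987 and 970 CPM in control samples 1 to 3. Of these markers 0 passed in blocked DESeq2, and whether they play any part in the result for Tgfbr3 was not tested. The share of all genes tested with these directions was not counted.

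Tgfbr2 was close between the siRNAs within each pair and varied between pairs. Its level was 246, 448 and 543 CPM in anti-Stat3 samples 1 to 3, against 217, 415 and 557 CPM in control samples 1 to 3. Both samples of pair 1 were the lowest, as they were for the summed macrophage markers and the summed fibroblast markers. Of the single fibroblast markers, Vim and S100a4 were lowest in both samples of pair 2 instead. Thy1 was lowest in anti-Stat3 sample 2, at 639 CPM, against 712 and 688 CPM in anti-Stat3 and control sample 1. Any part of these markers in the level of Tgfbr2 was not tested. The log2 change was 0.08 ± 0.12 (SE, blocked edgeR, adjusted p = 0.835), with a 95% interval of -0.19 to 0.35. The ratio of Tgfbr3 to Tgfbr2 in RPKM was 0.847, 0.524 and 0.440 in anti-Stat3 samples 1 to 3, against 0.982, 0.931 and 0.811 in control samples 1 to 3. It was lower with anti-Stat3 siRNA in each pair, by 0.21, 0.83 and 0.88 on the log2 scale, and was given no test.

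Tgfbr1, which carries the kinase that phosphorylates the receptor-regulated Smads, had 62.3, 96.1 and 41.8 CPM in anti-Stat3 samples 1 to 3, against 90.4, 92.6 and 57.0 CPM in control samples 1 to 3. It was lower with anti-Stat3 siRNA in pairs 1 and 3 and about level in pair 2, with log2 changes of -0.54, 0.05 and -0.45. The change of -0.31 ± 0.14 (SE) in blocked edgeR did not pass (adjusted p = 0.480). Tgfbr1 was the least abundant of the 3 receptors per length in each sample, at 10.2 ± 4.196 RPKM with anti-Stat3 siRNA and 12.2 ± 3.05 RPKM with control siRNA (SD, n = 3 each).

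**Figure D2:**
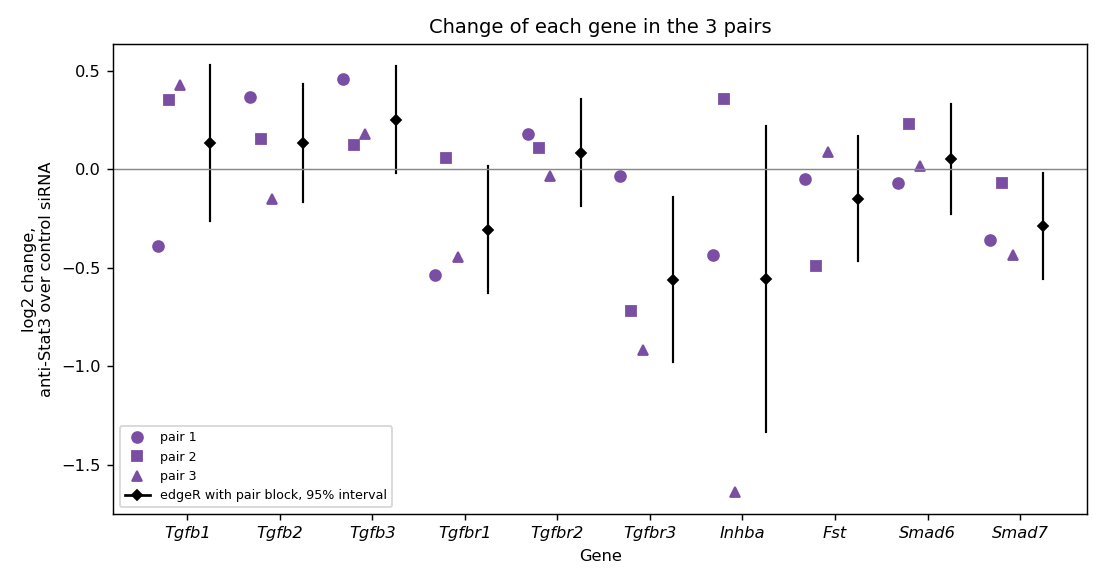
The log2 change of each gene, anti-Stat3 over control siRNA, in pairs 1 to 3 (purple) and in the edgeR fit with the pair as a block (black diamond, bar for the 95% interval). Tgfbr3 lay near 0 in pair 1 and at -0.72 and -0.92 in pairs 2 and 3, and Inhba ran from -1.64 to 0.35.

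Inhba, which encodes the activin A chain, varied most of the 10 genes. Its level was 431, 180 and 34.2 CPM in anti-Stat3 samples 1 to 3, against 584, 140 and 107 CPM in control samples 1 to 3. Both samples of pair 1 were above all others, and anti-Stat3 sample 3 was the lowest. The pair changes were -0.44, 0.35 and -1.64 on the log2 scale, which is a ratio to control of 0.320 in pair 3. Their SD of 1.00 was reached or passed by 2.32% of all genes tested, and a log2 change below -1 in pair 3 was seen in 3.27%. The log2 change was -0.56 ± 0.33 (SE) in blocked edgeR, with a 95% interval of -1.34 to 0.22 (adjusted p = 0.590). With the group alone it was -0.37 ± 0.99 (SE), and it was 0.79 without control sample 1 and -1.37 without anti-Stat3 sample 1.

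Fst, the activin antagonist, had 165, 69.4 and 124 CPM in anti-Stat3 samples 1 to 3, against 171, 97.7 and 116 CPM in control samples 1 to 3. Its change was near 0 in pairs 1 and 3 and -0.49 in pair 2, on the log2 scale, and did not pass (-0.15 ± 0.13, SE, blocked edgeR, adjusted p = 0.730). The ratio of Inhba to Fst in RPKM was 1.88, 1.86 and 0.199 in anti-Stat3 samples 1 to 3, against 2.46, 1.03 and 0.661 in control samples 1 to 3. It was lower with anti-Stat3 siRNA in pairs 1 and 3 and higher in pair 2, and thus had no common direction.

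The 5 genes whose log2 CPM profile over the 6 samples was closest to that of Inhba, by the root mean square difference after each gene's mean was subtracted, were Slc22a4, Shank2, Mybl1, Gdnf and Krt17. Their differences were 0.26 to 0.38 on the log2 scale, beside a median of 1.37 over all genes tested. Slc22a4, an organic cation transporter, had 7.15, 1.89 and 0.460 CPM in anti-Stat3 samples 1 to 3, against 11.3, 1.80 and 1.68 CPM in control samples 1 to 3. Slc22a4 and Krt17 had as few as 6 and 3 counts in a sample. Gdnf, a secreted factor of the same superfamily as TGF-beta, had at least 41. None of the 5 passed in blocked DESeq2 (lowest adjusted p = 0.239).

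Upstream sequences from RefSeq (GRCm38.p6) were matched by symbol for 6 of the 10 genes, as 7 windows from 250 bases before to 50 after a gene's start. The motif TTCNNNGAA, bound by STAT proteins, was found in 0 of the 7 windows on either strand, beside 8.30% of all 32851 windows, and TGANTCA, bound by AP-1 factors, in 0 beside 7.81%. These letters can lie outside the window, so this says nothing about binding. TATAAA was found in 2 windows, beside 13.6% of all, and these belonged to Inhba and Tgfb2. These genes also had the largest spread of the 10 over the 6 samples (SD of 1.47 and 0.93 on the log2 scale). With windows for only 6 of the 10 genes, any link of the letters to this spread was not tested. The 250 bases before the start are shown for both, with TATAAA in capitals. The Inhba sequence is chr13:16011601-16011850 on the plus strand, and the Tgfb2 sequence is chr1:186705990-186706239 on the minus strand.
Inhba: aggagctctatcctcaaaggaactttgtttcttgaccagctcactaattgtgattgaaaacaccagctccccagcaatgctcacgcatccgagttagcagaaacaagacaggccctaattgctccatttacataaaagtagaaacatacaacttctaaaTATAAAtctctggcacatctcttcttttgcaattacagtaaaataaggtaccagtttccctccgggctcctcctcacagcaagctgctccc
Tgfb2: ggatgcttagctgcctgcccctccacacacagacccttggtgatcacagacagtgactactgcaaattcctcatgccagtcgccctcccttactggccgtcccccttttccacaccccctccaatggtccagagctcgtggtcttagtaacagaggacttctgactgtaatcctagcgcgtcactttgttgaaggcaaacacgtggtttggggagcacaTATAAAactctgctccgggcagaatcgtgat
The capitals begin 91 bases before the start of Inhba and 31 bases before that of Tgfb2.

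Of the inhibitory Smads, Smad7, which also recruits ubiquitin ligases to TGFBR1, had 74.5, 40.5 and 30.5 CPM in anti-Stat3 samples 1 to 3, against 95.7, 42.6 and 41.3 CPM in control samples 1 to 3. Each anti-Stat3 sample was below the control sample of its pair, and pair 1 was above the others. The pair changes were -0.36, -0.07 and -0.43, and the log2 change of -0.29 ± 0.12 (SE, 95% interval -0.56 to -0.02) in blocked edgeR did not pass (adjusted p = 0.424). Smad6, which acts mainly on BMP signalling, had 21.8, 12.9 and 23.9 CPM in anti-Stat3 samples 1 to 3, against 22.9, 10.96 and 23.6 CPM in control samples 1 to 3. It was lowest in pair 2 with either siRNA, and its log2 change was 0.05 ± 0.12 (SE, blocked edgeR, adjusted p = 0.909).

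Ordered by mean RPKM, the anti-Stat3 samples had Tgfbr2 at 50.3 ± 18.5, Tgfb3 at 50.2 ± 13.9, Inhba at 33.6 ± 31.4, Tgfbr3 at 27.8 ± 2.04 and Fst at 25.99 ± 10.4 (SD, n = 3). The control samples had Tgfbr2 at 48.4 ± 20.8, Inhba at 43.3 ± 41.6, Tgfbr3 at 42.8 ± 15.04, Tgfb3 at 41.6 ± 6.87 and Fst at 27.9 ± 8.25. The other 5 genes followed in either group, with Tgfb1 first among them and Smad6 last at 6.08 ± 1.82 and 5.97 ± 2.22 RPKM in the anti-Stat3 and control samples. Neighbours in this order differed by less than the larger of their SDs, except Fst and Tgfb1 in both groups and Tgfb3 and Fst in the controls. Within samples the order followed the pairs, with Inhba highest in the 2 samples of pair 1 and Tgfbr2 in the other 4. Smad6 was the lowest in 4 samples and Tgfb2 in the 2 of pair 3.

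**Figure D3:**
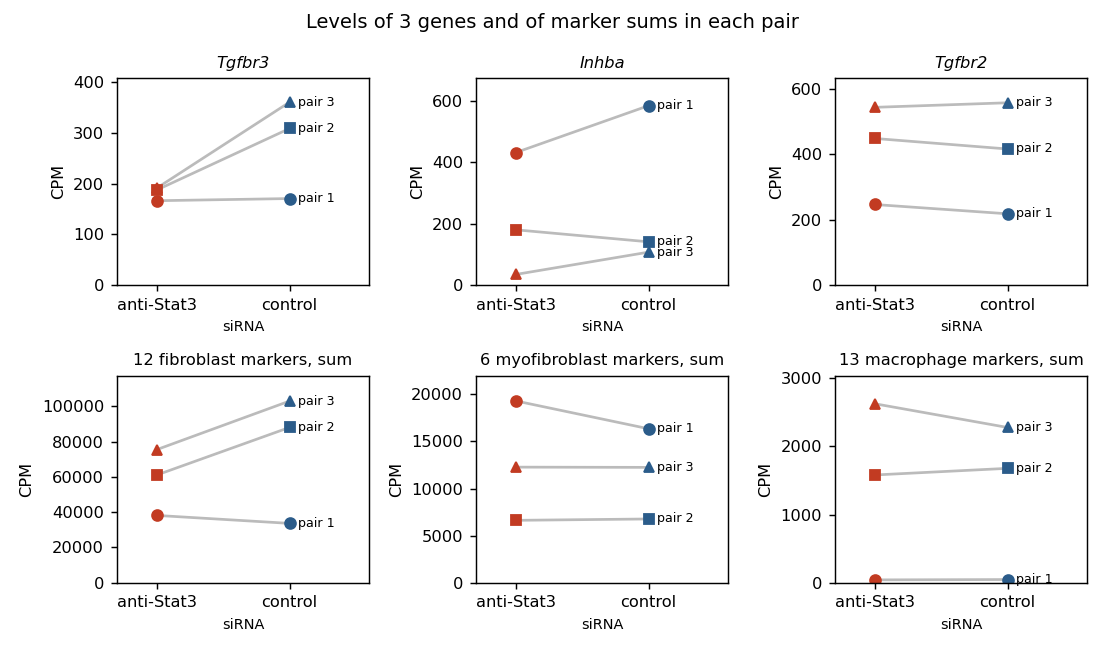
Levels in CPM of Tgfbr3, Inhba and Tgfbr2 (top) and summed levels of fibroblast, myofibroblast and macrophage markers (bottom), with anti-Stat3 samples left of control samples and a line for each pair. Tgfbr3 and the summed fibroblast markers, of which most is collagen and Fn1, were lower with anti-Stat3 siRNA in pairs 2 and 3. The summed myofibroblast markers were highest in pair 1, as was Inhba.

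Inhba, Tgfb2, Tgfb3, Fst and Smad7 had both samples of pair 1 above all others, as had the summed markers of the contractile myofibroblast state. Of the single markers, Myl9 and Tpm2 did not show this, with control sample 1 below both samples of pair 3. The 6 myofibroblast markers summed to 19308, 6622 and 12273 CPM in anti-Stat3 samples 1 to 3, against 16346, 6768 and 12247 CPM in control samples 1 to 3. With either siRNA they were lowest in pair 2, as was Fst, while Inhba, Tgfb2, Tgfb3 and Smad7 were lowest in pair 3. Of these markers 0 passed in blocked DESeq2, and any part of theirs in the levels of the 5 genes was not tested. How many of all genes tested had both samples of pair 1 highest was not counted, but the pair terms passed for 41.5% of them.

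The rest of the pathway was followed in 135 further genes, of which 115 were tested. Over all 6 samples edgeR called 0 of them with the group alone and 0 with the block, limma-voom with the block and DESeq2 with the group alone also called 0, and blocked DESeq2 called 4, of which 1 rose and 3 fell. Among all genes tested 0.873% rose and 0.783% fell in that fit. At an unadjusted p under 0.05 there were 2 pathway genes in edgeR with the group alone, or 1.74% of those tested beside 1.77% of all genes, and 22 in blocked edgeR, or 19.1% beside 10.8%. The median log2 change of the 115 genes was -0.10 in blocked DESeq2, where that of all genes tested was -0.0040. The lists were chosen with earlier results of these data known, and any part of that choice in these values was not tested. With a pair left out, blocked DESeq2 called 8 of the pathway genes without pair 1, 0 without pair 2 and 0 without pair 3, where it called 3.19%, 0.105% and 0.147% of all genes tested. The 4 genes kept their direction in each of these fits.

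Acvr1b, the type I receptor for activin, fell by 0.79 ± 0.22 (SE) on the log2 scale in blocked DESeq2 (adjusted p = 0.025). Its level was 23.4, 22.8 and 22.6 CPM in anti-Stat3 samples 1 to 3, against 27.4, 43.4 and 52.1 CPM in control samples 1 to 3, and the groups did not overlap. As with Tgfbr3, the anti-Stat3 samples were close to each other and the controls of pairs 2 and 3 stood above. It did not pass in blocked edgeR (adjusted p = 0.182). In blocked DESeq2 its log2 change was -1.06 without pair 1, -0.72 without pair 2 and -0.57 without pair 3, and it passed without pair 1 alone. Of the 9 other receptors and co-receptors tested, 1 fell and 0 rose, with a median of -0.14.

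Of the 36 genes known to be induced by TGF-beta, all were tested, and 2 fell and 1 rose in blocked DESeq2. Vegfa, an angiogenic factor that is also induced by hypoxia, fell by 0.70 ± 0.14 (SE, adjusted p = 3.6e-04) and Snai1, a transcription factor of mesenchymal transition, by 0.76 ± 0.22 (adjusted p = 0.031) on the log2 scale. In pairs 1 to 3 Vegfa changed by -0.51, -0.65 and -0.94 and Snai1 by -0.13, -1.23 and -0.93. Cdkn2b, a cell cycle inhibitor, rose by 0.71 ± 0.19 (adjusted p = 0.014). Its level was 71.9, 64.1 and 74.1 CPM in anti-Stat3 samples 1 to 3, against 59.2, 31.6 and 41.5 CPM in control samples 1 to 3, and the groups did not overlap. None of these 3 passed in blocked edgeR (adjusted p from 0.161 to 0.204). The list median was -0.14 in blocked DESeq2, with pair medians of 0.02, -0.0027 and -0.41, and 11 genes were lower and 6 higher in all 3 pairs, where 16.4% and 17.3% of all genes tested were.

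Classical readouts of TGF-beta signalling did not share a direction. Ctgf, a matricellular growth factor, changed by 0.12, 0.17 and -0.62 in pairs 1 to 3, on the log2 scale. Pmepa1, a feedback inhibitor of the pathway, changed by -0.0016, -0.06 and -0.13. Acta2, smooth muscle actin, changed by 0.32, 0.03 and -0.03. These 3 were named after their values were seen, and none passed. In pair 3, where Inhba was lowest against its control, Ctgf was lower too, and 1 pair gives no test of this.

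Without pair 1, blocked edgeR called 9 of the 115 pathway genes and blocked DESeq2 8, where these fits on 2 samples per group called 5.2% and 3.19% of all genes tested. Of these Acvr1b, Tgfbi, Col3a1, Snai1 and Vegfa fell and Mmp9, Cdkn2b and Hmga2 rose in either fit, and Id1 rose in edgeR. Col3a1, a fibrillar collagen, fell by 1.16 ± 0.20 (SE) and Tgfbi, a matrix protein named for its induction by TGF-beta, by 1.52 ± 0.23 on the log2 scale in blocked edgeR (adjusted p = 0.0026 and 8.5e-04). Tgfbi had log2 changes of -0.29, -2.20 and -1.03 in pairs 1 to 3.

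**Figure D4:**
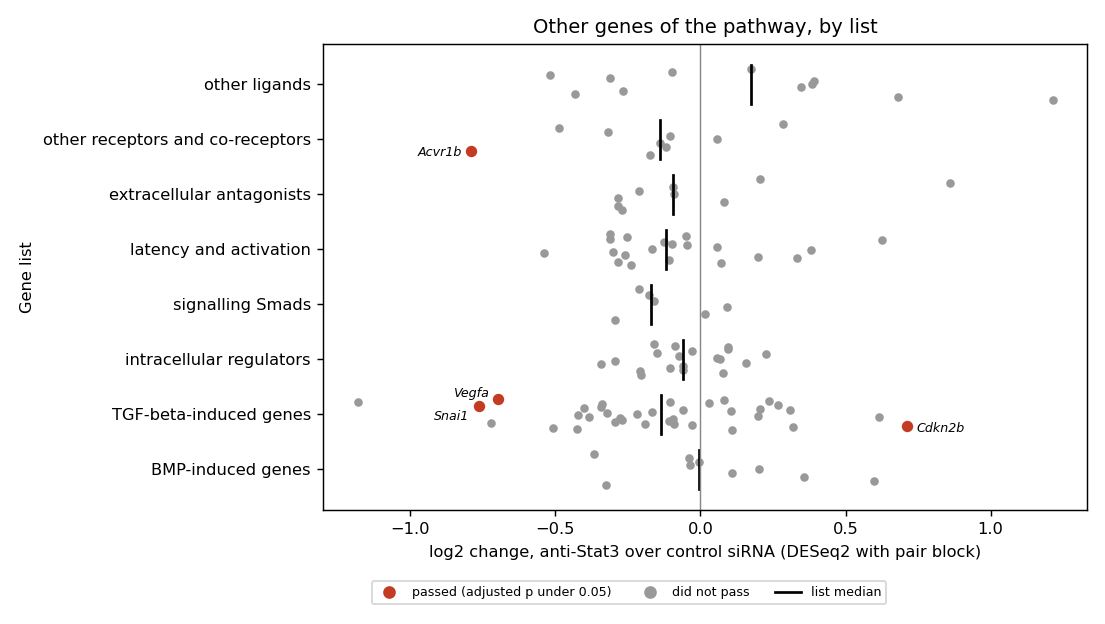
Log2 changes of the 115 other pathway genes, anti-Stat3 over control siRNA, from DESeq2 with the pair as a block, by list, with black bars for list medians and red points for genes that passed. Acvr1b, Vegfa and Snai1 lay below 0 and Cdkn2b above, and the list medians lay between -0.17 and 0.18. A gene on more than 1 list is drawn on each.

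In the other lists 0 genes passed in blocked DESeq2, where 1.66% of all genes tested did. Of 11 other ligands tested, the smallest p in blocked edgeR belonged to Gdf6 (0.39 ± 0.11, adjusted p = 0.248) and Bmp4 (1.18 ± 0.35, adjusted p = 0.251; log2 change, SE), and Bmp4 had at most 3.68 CPM. Among 9 extracellular antagonists they were Dcn, a proteoglycan that binds TGF-beta (-0.29 ± 0.13), and Fstl3, a relative of follistatin (-0.29 ± 0.15). Among 20 genes of latency and activation they were Ltbp1, which anchors latent TGF-beta in the matrix (0.38 ± 0.12), and the protease Mmp9 (0.63 ± 0.28). Of the 6 signalling Smads, Smad1 (-0.29 ± 0.11) and Smad4 (-0.16 ± 0.10) had the smallest p. In both, and in Runx2 named below, the groups did not overlap, as in 4.67% of all genes tested. Dab2 (-0.21 ± 0.10) and Skil (-0.34 ± 0.17) led the 19 intracellular regulators, and Runx2 (-0.37 ± 0.11) and Atoh8 (-0.33 ± 0.11) the 9 tested BMP-induced genes. None of these passed in blocked edgeR (adjusted p at least 0.248).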

How the data were processed

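TopHat2 2.0.10, HTSeq and the mouse build mm9 are named in the submitters' processing notes. The authors deposited raw counts per gene symbol, not normalised, in 6 columns for 24015 symbols. Columns written "sh" were matched to titles written "si" by group and number, and 0 columns were left unused. No source used here states the strand or annotation of the counting. Poly(A) selection and TruSeq libraries are per the labels' protocols.

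The fit was made in R 4.3.3 with edgeR 4.0.16 (quasi-likelihood F test, TMM, filterByExpr with min.count 10 and min.total.count 15, group alone) on 13284 genes. SEs are the change over the square root of F. Alternatives were DESeq2 1.42.0, limma-voom (limma 3.58.1), the replicate block, other scaling, no filter, and samples or pairs left out. The group-alone edgeR fit, the 3 blocked fits and the term for pair 1 were tested on simulated data. Log2 CPM used a prior count of 2. RPKM used merged exon lengths of GENCODE M21, another build than mm9. At a count of 0 the shallowest library allows 0.231 CPM (3 counts), which covers counting error only.

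Across genes, which are not independent replicates, deviations from group means correlated at 0.83, 0.82 and 0.83 within the numbers 1 to 3. For this the numbers were taken to pair the samples. Between different numbers the values were -0.16 or lower. Deviations cancel out within a group, so positive values within numbers bring negative ones between them, which are not separate evidence of pairing. The sources used here do not say what a number shares.

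Members and lists were chosen with earlier results of these data known. Named were the members, Stat3, the 5 profiles nearest to the member with the largest SD, and per list up to 4 genes called in edgeR or blocked DESeq2, or else the 2 with the smallest p. Genes named only as called without pair 1 were chosen after their values were seen. Exact permutation tests were not used, since 3 against 3 samples cannot reach a two-sided p under 0.1.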

Additional observations from a re-analysis of the deposited data

How the results depend on the processing

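Of the 10 members, 0 passed in any of 7 fits on all 6 samples (with and without the replicate block, scaling or filter). With samples or pairs left out, 0 to 1 passed, the 1 being Tgfbr3 without pair 1. Of the other pathway genes, 4 passed in DESeq2 with the replicate block, 0 in edgeR and limma-voom with that block, and 0 to 9 with samples or pairs left out (without pair 1, 9 in edgeR and 8 in DESeq2 with the block). With samples or pairs left out some log2 changes reversed: their ranges were -0.0173 to 0.39 for Tgfb1, -0.58 to 0.86 for Tgfb2, -0.24 to 0.38 for Tgfbr2, -1.37 to 0.79 for Inhba, -0.41 to 0.16 for Fst, -0.25 to 0.25 for Smad6 and -0.75 to 0.21 for Smad7. For Dcn they were -0.76 to 0.21, for Mmp9 -0.35 to 2.06, for Dab2 -0.52 to 0.14, for Skil -0.64 to 0.16 and for Atoh8 -0.61 to 0.033. In fits with the replicate block, Tgfb1 reversed without pair 3 (-0.0173 in edgeR and -0.0115 in DESeq2), and without pair 2 so did Fst (0.0157 and 0.0159) and Smad6 (-0.0322 and -0.0318). Leaving out a single sample breaks a pair. Tgfb3, Tgfbr1 and Tgfbr3 kept their direction in every fit run, but with samples or pairs left out their log2 changes ran from 0.030 to 0.43, -0.63 to -0.015 and -0.89 to -0.37. The causes were not tested.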
